A study of Homo sapiens with 21 samples.

Results

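Expression of 8 genes that mark or act in pancreatic alpha cells was followed through islet differentiation in which the transcription factor genes ISL1, PAX6 or PDX1 had been knocked out. The genes were the hormone gene GCG, the transcription factor genes IRX1, IRX2 and POU3F4, the marker genes TTR, GC and LOXL4, and DPP4, which encodes a peptidase. They were chosen by name, with earlier results of these data known. All 8 were found among the 62699 genes of the count table and passed the filter on low counts. The islets came from H1, a human embryonic stem cell line, either unedited (WT) or with both copies of a factor gene disrupted (ISL1-/-, PAX6-/- and PDX1-/-). On day 11 the cells received a lentivirus with ISL1, IRES2 and blue fluorescent protein (the ISL1 vector) or with blue fluorescent protein alone (the BFP vector). Cells positive for the protein were isolated by sorting on day 18 for RNA. The 4 genotypes and 2 vectors gave 8 groups and 21 libraries. WT + BFP, WT + ISL1 and PDX1-/- + ISL1 had 2 libraries each, and ISL1-/- + BFP, ISL1-/- + ISL1, PAX6-/- + BFP, PAX6-/- + ISL1 and PDX1-/- + BFP had 3 each. Every group, WT included, had thus been dissociated, transduced and sorted. The labels call the libraries biological replicates and do not give the number of clones per genotype or the promoter of the vectors.

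Alpha cells release glucagon, which is cut from the GCG product proglucagon and raises blood glucose by acting on the liver. In the developing pancreas PAX6 and ISL1 act in all endocrine lineages and can bind GCG regulatory sequence, and PDX1 is kept in beta cells and lost from alpha cells. IRX1 and IRX2 are homeodomain factors enriched in alpha cells, and POU3F4 (BRN4) is a POU-homeodomain factor known for early alpha cells. TTR (transthyretin) and GC (vitamin D-binding protein) are carrier proteins made by alpha cells and also, in large amounts, by liver. LOXL4 is a lysyl oxidase that acts on extracellular matrix, and DPP4 is a membrane peptidase that inactivates the incretins GLP-1 and GIP.

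The libraries held from 36.8 to 60.2 M counts (1 M is 1000000), so that every member had at least 70 counts in every library. The general endocrine markers, among them CHGA and SYP, summed to between 12061 and 55379 CPM (counts per 1000000, on the scaled library size) over the libraries, and the liver markers, among them ALB and APOB, to between 4319 and 28268 CPM. The ISL1 counts did not separate the vectors. They were 306 and 519 CPM in WT + BFP, 338 and 361 CPM in WT + ISL1, 73.7 to 82.4 CPM in ISL1-/- + BFP and 71.6 to 96.8 CPM in ISL1-/- + ISL1. PAX6 counts in PAX6-/- + BFP (99.5 to 166 CPM) overlapped those in WT + BFP (140 and 232 CPM), and PDX1 counts were 103 to 116 CPM in PDX1-/- + BFP and 80.0 and 102 CPM in WT + BFP. Against WT with BFP, log2 changes of ISL1 were -2.42 in ISL1-/- and -1.43 in PDX1-/- (edgeR, adjusted p = 0.00126 and 0.0254). In PAX6-/- the change was -1.1, which did not pass (adjusted p = 0.112). ISL1 counts in ISL1-/- + BFP lay below those in PAX6-/- + BFP (133 to 236 CPM) and PDX1-/- + BFP (132 to 174 CPM). These differences of -1.32 and -0.99 did not pass. A fall of ISL1 against WT thus does not by itself mark ISL1-/-. Gene counts therefore do not check the PAX6, PDX1 and vector labels, and all groups are given as labelled. Replicate 3 of PAX6-/- + ISL1 and replicate 4 of PDX1-/- + ISL1 stood apart, with 3.16% and 3.84% of counts from mitochondrial genes against 1.28% to 1.93% in the other 19 libraries. Replicate 4 of PDX1-/- + ISL1 held 26195 CPM of beta-cell markers in sum, and replicate 2 held 636 CPM. All groups share 1 estimate of the spread, so these 2 libraries enter the test of every comparison. Without both of them 24 of 26 calls of the 8 genes stayed and 28 were added. The share of all genes passing without them also rose, with BFP to 23.5% in ISL1-/- and PAX6-/- and 27.6% in PDX1-/- against WT, and calls gained in that way are to be read against it. Shares with only 1 of the 2 left out are not given here, so calls gained in those fits do not set a member apart. In bulk RNA, fewer cells of a type and less RNA per cell cannot be told apart.

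By the coordinates of the count table on GRCh38, GCG lies at chr2:162142882-162152404 (minus strand) and DPP4 at chr2:161992245-162074394 (minus strand), 68.5 kb away with 3 genes between. IRX2 lies at chr5:2745845-2751677 (minus strand) and IRX1 at chr5:3595832-3601403 (plus strand), 844.2 kb apart. POU3F4 is at chrX:83508290-83512127, TTR at chr18:31557009-31598833, GC at chr4:71741696-71804041 and LOXL4 at chr10:98247690-98268194. Counts were taken over all annotated exons of a gene. An annotated gene on the opposite strand overlapped POU3F4, with at most 16.1% of its count in any library. The strand setting of the counting was not given in the sources used here, so the reads of such partners cannot be told apart.

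The 250 bases before the RefSeq start of 3 members are shown because they cover the different courses seen across the knockouts. GCG fell in ISL1-/- and PAX6-/-, LOXL4 fell in ISL1-/-, and POU3F4 rose in PAX6-/-. All are read 5′ to 3′ on the gene's own strand, from RefSeq on GRCh38.p14, at chr2:162152248-162152497 (minus), chr10:98268195-98268444 (minus) and chrX:83508040-83508289 (plus). Capitals mark TAAT, the core recognised by homeodomain proteins, on either strand.

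GCG: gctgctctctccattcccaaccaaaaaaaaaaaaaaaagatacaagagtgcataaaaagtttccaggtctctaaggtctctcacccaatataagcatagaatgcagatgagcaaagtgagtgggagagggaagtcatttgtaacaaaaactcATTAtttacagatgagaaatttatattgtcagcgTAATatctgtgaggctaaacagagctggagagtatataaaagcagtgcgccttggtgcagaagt

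LOXL4: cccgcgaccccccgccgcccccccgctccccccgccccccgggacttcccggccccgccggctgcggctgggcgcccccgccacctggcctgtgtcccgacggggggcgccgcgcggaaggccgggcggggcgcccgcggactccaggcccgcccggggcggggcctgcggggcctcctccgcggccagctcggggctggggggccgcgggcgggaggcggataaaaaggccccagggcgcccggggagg

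POU3F4: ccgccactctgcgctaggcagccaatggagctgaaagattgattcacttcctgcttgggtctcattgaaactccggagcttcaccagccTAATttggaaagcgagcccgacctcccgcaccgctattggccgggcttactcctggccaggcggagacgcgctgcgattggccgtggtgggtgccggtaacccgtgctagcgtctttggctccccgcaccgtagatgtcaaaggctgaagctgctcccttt

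The GCG sequence held 2 TAAT matches and the POU3F4 sequence 1, while LOXL4 held none. The same word occurs in 47.4% of 35116 RefSeq promoters of this length, and it was in none of the IRX1, IRX2 and DPP4 promoters. GATTA and TGTTTAC, searched on both strands and found in 17.9% and 3.0% of all promoters, were in none of these 6 members. GC content was 38.4% for GCG, 60% for POU3F4 and 86.4% for LOXL4, against a median of 58.0% over all promoters. TTR and GC had no entry in the promoter table. A match describes letters and is not evidence of binding.

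With the BFP vector, 4 of the 8 genes were lower in ISL1-/- than in WT (GCG, LOXL4, TTR and DPP4) and none was higher, where 5.59% of all 25884 tested genes passed (1.67% higher and 3.92% lower). In PAX6-/- 3 were lower (GCG, GC and DPP4) and POU3F4 was higher, against 5.51% of all genes (2.25% higher and 3.26% lower). In PDX1-/- DPP4 was lower and IRX1 higher, against 9.68% of all genes (4.03% higher and 5.65% lower). The median log2 fold change of the 8 was -1.44, -1.27 and -0.34 in the 3 knockouts, beside 0.02, 0.03 and 0.03 over all tested genes. These 3 comparisons share the 2 WT + BFP libraries. The summed general endocrine markers were 22551 to 27697 CPM in WT + BFP, 26687 to 36757 CPM in ISL1-/-, 17592 to 30076 CPM in PAX6-/- and 49381 to 55379 CPM in PDX1-/-. In ISL1-/- and PAX6-/- none of the 7 passed (by edgeR), and in PDX1-/- INSM1 rose. The part of endocrine content in the results for PDX1-/- was not tested.

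Groups of 2 or 3 libraries often fail to overlap, so that alone sets no gene apart. With the BFP vector the share of all tested genes that did not overlap was 51.6%, 48.5% and 52.4% for ISL1-/-, PAX6-/- and PDX1-/- against WT. It was 22.9% for ISL1-/- against PAX6-/-, 38.8% for ISL1-/- against PDX1-/- and 31.5% for PAX6-/- against PDX1-/-. With the ISL1 vector it was 50.6%, 31.6% and 31.9% for the same 3 knockouts against WT. Between vectors it was 41.6% in WT and 24.9% in ISL1-/-, and 16% and 33.6% in PAX6-/- and PDX1-/-. Statements that groups lay wholly above or below one another are read against these shares.

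**Figure D1:**
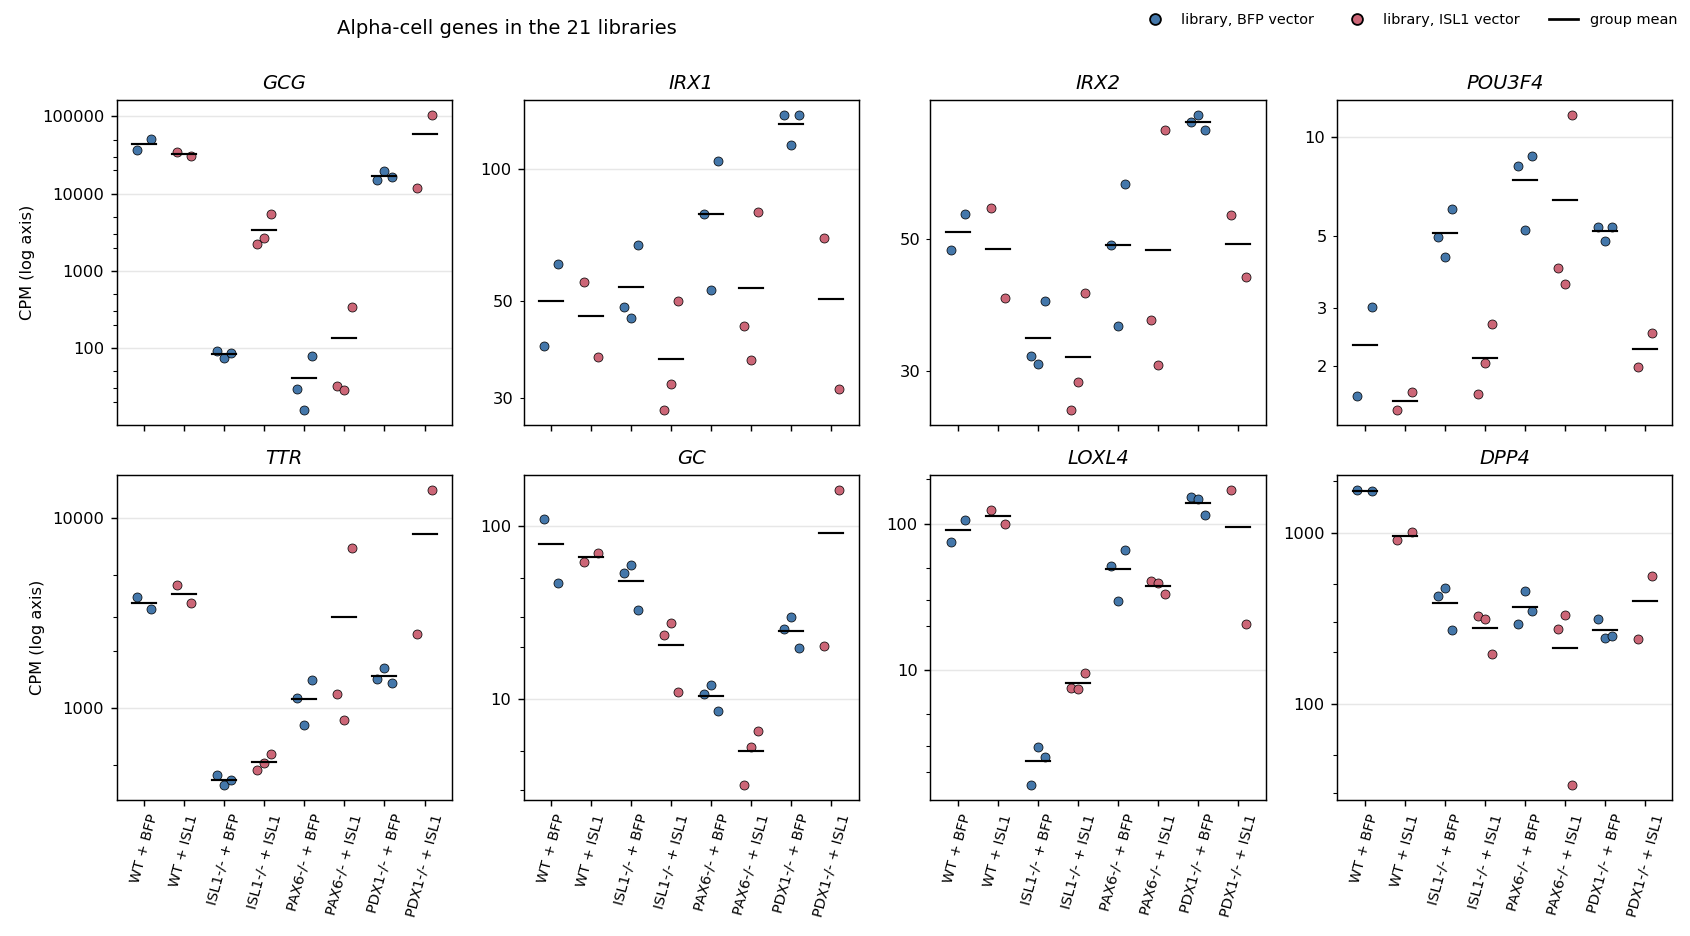
Level of each gene in every library, as CPM on a log axis, by genotype and vector. Points are libraries (blue BFP vector, red ISL1 vector) and bars are group means. GCG spans from 15.7 to 106084 CPM over the 21 libraries, whereas IRX2 stays between 25.8 and 80.8 CPM.

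Between genes, levels were compared per kb of exon. In WT + BFP the mean level of GCG was 18411 ± 4482 CPM per kb (SD, n = 2 for this and the next values) and that of TTR was 1631 ± 166 CPM per kb. GC (37.7 ± 21.4 CPM per kb), LOXL4 (24.9 ± 6.02) and IRX1 (24.02 ± 7.15) were alike within about their spread. The libraries of IRX2 (15.1 ± 1.499) lay below those of GC, LOXL4 and IRX1. POU3F4 was the lowest, at 0.606 ± 0.257 CPM per kb. The level of DPP4, 122 ± 2.12 CPM per kb, is divided by an exon union of 14432 bases and may be low for that reason alone.

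GCG, the glucagon gene, took 3.39% and 4.61% of all counts in WT + BFP. Its levels there were 36245 and 51317 CPM. In ISL1-/- + BFP the 3 libraries held 90.9, 74.2 and 85.3 CPM, and in PAX6-/- + BFP they held 29.1, 15.7 and 77.9 CPM. In both knockouts every library was far below both WT libraries. The log2 fold change was -9.03 ± 1.16 (SE) in ISL1-/- (adjusted p = 0.000211) and -10.06 ± 1.21 in PAX6-/- (adjusted p = 0.000151). ISL1-/- and PAX6-/- overlapped in their low GCG levels, with a log2 difference of 1.03 ± 0.82 that did not pass (adjusted p = 0.85).

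PDX1-/- + BFP held 14965, 19603 and 16280 CPM of GCG, and the 3 libraries lay below both WT libraries and far above every ISL1-/- and PAX6-/- library with the same vector. The log2 fold change of -1.37 ± 0.89 did not pass (adjusted p = 0.417), and it was -1.39 without both libraries that stood apart, which passed (adjusted p = 0.0226). Against PDX1-/- with the same vector, GCG was lower in ISL1-/- by a log2 of -7.67 ± 1.08 (adjusted p = 0.000507) and in PAX6-/- by -8.70 ± 1.13 (adjusted p = 0.000264). These pairs of knockouts had 5.07% and 3.04% of all genes passing. Both differences passed on leaving out each of their own 6 libraries in turn, and in the other settings tried except DESeq2. DESeq2 gave GCG no adjusted p.

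With the ISL1 vector, GCG rose in ISL1-/-. The 3 libraries held 2197, 2689 and 5362 CPM, all far above the 74.2 to 90.9 CPM of ISL1-/- + BFP and all below the 34367 and 31162 CPM of WT + ISL1. The change between vectors was 5.35 ± 0.97 on the log2 scale (adjusted p = 0.0176), in a comparison where 0.382% of all genes passed. GCG was the only member that passed there. The call was lost on leaving out 5 of the 6 libraries in turn, with an adjusted p of at most 0.145 and a log2 change between 4.87 and 5.59. Against WT + ISL1, GCG in ISL1-/- + ISL1 was at -3.26 ± 0.93, which missed the threshold (adjusted p = 0.0585) and passed without the 2 libraries that stood apart (adjusted p = 8.21e-05). The vector effect in ISL1-/- minus that in WT was 5.77 ± 1.39 and did not pass over all genes (adjusted p = 0.582, unadjusted p = 0.000621). Without the filter on low counts, with voom weights, with only these groups in the fit and without the 2 libraries that stood apart, GCG passed in that test.

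In the other genotypes no change of GCG with the vector passed. In WT the log2 change was -0.42 ± 0.99 (adjusted p = 1). PAX6-/- + ISL1 held 32.0, 28.1 and 339 CPM, and the high value was that of replicate 3. The log2 change in PAX6-/- was 1.70 ± 0.83 with that library (adjusted p = 0.496) and -0.44 without it (adjusted p = 0.904). PDX1-/- + ISL1 held 11659 CPM in replicate 2 and 106084 CPM, or 7.42% of its counts, in replicate 4. The change was 1.80 ± 0.89 with replicate 4 (adjusted p = 0.185) and -0.54 without it (adjusted p = 0.896). Against WT + ISL1, GCG in PAX6-/- + ISL1 was lower by a log2 of -7.95 ± 1.11 (adjusted p = 0.000654), and by -10.09 without replicate 3 (adjusted p = 7.29e-05). The call was lost when only these 2 groups were fitted (adjusted p = 0.0977).

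DPP4, the incretin-degrading peptidase, had its highest levels in WT. WT + BFP held 1787 and 1744 CPM and WT + ISL1 held 903 and 1012 CPM. ISL1-/- + BFP held 424, 474 and 272 CPM, PAX6-/- + BFP held 293, 456 and 349 CPM, and PDX1-/- + BFP held 313, 243 and 250 CPM. The 3 knockouts overlapped one another and none reached WT, and DPP4 was the only member to pass in all of them. The log2 fold changes were -2.18 ± 0.57 in ISL1-/- (adjusted p = 0.0322), -2.27 ± 0.57 in PAX6-/- (adjusted p = 0.0275) and -2.72 ± 0.58 in PDX1-/- (adjusted p = 0.00623). The call in PDX1-/- held in every alternative, and those in ISL1-/- and PAX6-/- were lost on leaving out any 1 of their own libraries (adjusted p up to 0.148).

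Between vectors no DPP4 difference passed. In WT the groups did not overlap, and the log2 change of -0.88 ± 0.63 did not pass (adjusted p = 1). Of 13 alternatives it passed only with the WT groups fitted alone (edgeR, adjusted p = 0.0207). The share of all genes passing in that fit is not given here. Among ISL1 vector groups DPP4 was lower in PAX6-/- than in WT (-2.17 ± 0.57, adjusted p = 0.0426, and -1.66 with adjusted p = 0.0175 without replicate 3), and the call was lost when only these groups were fitted or when PAX6-/- + ISL1 replicate 1 or either WT + ISL1 library was left out (adjusted p up to 0.228). The level in replicate 3 of PAX6-/- + ISL1 was 33.5 CPM, the lowest of all 21 libraries, beside 272 and 332 CPM in its group. DPP4 in ISL1-/- + ISL1 (324, 311 and 194 CPM) was at -1.79 ± 0.57 against WT + ISL1 and did not pass (adjusted p = 0.0928). It passed without PAX6-/- + ISL1 replicate 3 (adjusted p = 0.00244) and did not without PDX1-/- + ISL1 replicate 4 (-1.79). APOB of the liver list was among the 3 genes whose levels were most like those of DPP4, with Pearson r = 0.96 over the 21 libraries. The summed liver markers were at 18265 and 20759 CPM in WT + BFP, above every library but replicate 4 of PDX1-/- + ISL1 (28268 CPM), at 10685 and 12850 CPM in WT + ISL1 and at 4319 to 10305 CPM in the 3 knockouts with BFP. Their part in the DPP4 result was not tested.

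IRX1 and IRX2, the Iroquois factors, did not pass in ISL1-/- or PAX6-/- against WT. IRX1 was at 39.4 and 60.5 CPM in WT + BFP, at 48.2, 45.7 and 67.0 CPM in ISL1-/- + BFP and at 78.9, 53.0 and 104 CPM in PAX6-/- + BFP. Both knockouts overlapped WT. In PDX1-/- + BFP IRX1 was at 133, 113 and 133 CPM, above every WT library, a log2 rise of 1.34 ± 0.41 (adjusted p = 0.0469). That call was lost on leaving out any of its 5 libraries (adjusted p up to 0.4) and with RLE scaling.

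IRX2 was at 47.8 and 55.0 CPM in WT + BFP, 31.8, 30.8 and 39.4 CPM in ISL1-/- + BFP, 48.8, 35.7 and 61.8 CPM in PAX6-/- + BFP and 78.4, 80.8 and 76.1 CPM in PDX1-/- + BFP. ISL1-/- lay wholly below WT, PDX1-/- wholly above it, and PAX6-/- overlapped it. Against WT no IRX2 difference passed, at -0.60 ± 0.33, -0.08 ± 0.33 and 0.61 ± 0.34 in ISL1-/-, PAX6-/- and PDX1-/-. ISL1-/- and PDX1-/- did differ, by -1.20 ± 0.30 (adjusted p = 0.0249), and this was lost on leaving out 5 of the 6 libraries in turn (adjusted p up to 0.115). Without both libraries that stood apart, IRX2 in PDX1-/- passed against WT at 0.59 (adjusted p = 0.0493). Over the 21 libraries log2 levels of IRX1 and IRX2 had a Pearson r of 0.85, and of 0.89 without the 2 libraries that stood apart. The libraries share genotype groups, so this is a description.

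IRX1 with the ISL1 vector was at 69.6 and 31.4 CPM in PDX1-/-, both below PDX1-/- + BFP. The log2 change of -1.32 ± 0.41 passed (adjusted p = 0.043), in a comparison where 12.5% of all genes did, and was -0.86 without replicate 4 (adjusted p = 0.45). No other change of IRX1 or IRX2 with the vector passed in any genotype. IRX1 was at 28.1, 32.3 and 49.8 CPM in ISL1-/- + ISL1 and at 43.7, 36.6 and 79.6 CPM in PAX6-/- + ISL1, and IRX2 was at 25.8, 28.7 and 40.5 CPM and at 36.5, 30.8 and 76.1 CPM in the same groups. Each of these overlapped its BFP group. In WT + ISL1, IRX1 was at 55.0 and 37.2 CPM and IRX2 at 56.3 and 39.7 CPM, which also overlapped WT + BFP.

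POU3F4 was scarce throughout, from 70 to 560 counts per library. WT + BFP held 1.63 and 3.02 CPM. Each knockout with BFP was above both: ISL1-/- at 4.98, 4.32 and 6.04 CPM, PAX6-/- at 8.20, 5.21 and 8.78 CPM and PDX1-/- at 5.34, 4.82 and 5.31 CPM. The rise passed in PAX6-/- (1.67 ± 0.45, adjusted p = 0.0367) and did not in ISL1-/- (1.14 ± 0.44, adjusted p = 0.153) or PDX1-/- (1.16 ± 0.44, adjusted p = 0.117). The 3 knockouts did not differ from one another past the threshold (adjusted p from 0.617 to 0.993). Without PAX6-/- + ISL1 replicate 3, POU3F4 passed in ISL1-/- (1.14, adjusted p = 0.0254) and PDX1-/- (1.16, adjusted p = 0.0168) as well. Without PDX1-/- + ISL1 replicate 4 neither passed (1.16 in ISL1-/- and 1.15 in PDX1-/-). Leaving out 4 of 5 libraries in turn ended the PAX6-/- call (adjusted p up to 0.363).

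POU3F4 with the ISL1 vector was again higher in PAX6-/- than in WT. PAX6-/- + ISL1 held 4.00, 3.57 and 11.7 CPM and WT + ISL1 held 1.47 and 1.67 CPM, a log2 difference of 2.03 ± 0.46 (adjusted p = 0.0191). Without replicate 3, the high library, it was 1.27 (adjusted p = 0.0474), and the call was lost when either WT library was left out (adjusted p up to 0.213) or only these groups were fitted. In ISL1-/- the vector took POU3F4 to 1.64, 2.04 and 2.68 CPM, below every ISL1-/- + BFP library. That change of -1.27 ± 0.38 did not pass (adjusted p = 0.234). It passed without PAX6-/- + ISL1 replicate 3 (adjusted p = 0.0304) and did not without PDX1-/- + ISL1 replicate 4 (-1.29). PDX1-/- + ISL1, at 1.99 and 2.52 CPM, was also below its BFP group, at -1.20 ± 0.44 (adjusted p = 0.081, and 0.0128 without PAX6-/- + ISL1 replicate 3).

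TTR fell in ISL1-/- with either vector. WT + BFP held 3803 and 3295 CPM and ISL1-/- + BFP held 443, 392 and 418 CPM, a log2 change of -3.09 ± 0.68 (adjusted p = 0.0117). WT + ISL1 held 4422 and 3541 CPM and ISL1-/- + ISL1 held 473, 510 and 575 CPM, a log2 change of -2.94 ± 0.68 (adjusted p = 0.021), in a comparison where 3.72% of all genes passed. The lowest WT library was several times above the highest ISL1-/- library for each vector. The calls were lost on leaving out 3 of 5 libraries with BFP (adjusted p up to 0.0688) and any library with ISL1 (up to 0.121), while no log2 change under any alternative was smaller in size than -2.78.

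PAX6-/- and PDX1-/- had TTR levels between ISL1-/- and WT. PAX6-/- + BFP held 1130, 816 and 1403 CPM (-1.67 ± 0.66, adjusted p = 0.166), and PDX1-/- + BFP held 1420, 1614 and 1356 CPM (-1.28 ± 0.66, adjusted p = 0.271). These groups lay wholly below WT and wholly above ISL1-/-, and none of those differences passed. Of 15 alternatives, 8 called TTR lower in ISL1-/- than in PDX1-/-, and 3 called it lower in ISL1-/- than in PAX6-/-. Without both libraries that stood apart TTR passed in PAX6-/- (-1.68, adjusted p = 4.02e-06) and PDX1-/- (-1.30, adjusted p = 3.15e-05) against WT. In PDX1-/- the ISL1 vector gave 2438 and 14034 CPM, a rise of 2.49 ± 0.67 (adjusted p = 0.0237) that was 0.74 without replicate 4 (adjusted p = 0.719) and 0.76 without both libraries that stood apart (adjusted p = 0.0357). In PAX6-/- it gave 1180, 857 and 6949 CPM, with 1.42 ± 0.61 (adjusted p = 0.438) and -0.13 without replicate 3. Against WT + ISL1, TTR in PAX6-/- was at -0.41 ± 0.66 (adjusted p = 0.787), and at -1.97 without replicate 3 (adjusted p = 0.0382). Of the 10 liver markers 5, 8 and 9 were lower in ISL1-/-, PAX6-/- and PDX1-/- with BFP, and 7 were higher with the ISL1 vector in PDX1-/-, of which 1 stayed called without replicate 4. The summed liver markers were 7483 CPM in replicate 2 and 28268 CPM in replicate 4 of PDX1-/- + ISL1. With BFP they summed to 18265 and 20759 CPM in WT and 7134 to 10305 CPM in ISL1-/-. In PAX6-/- and PDX1-/- with BFP they summed to 5834 to 8092 CPM and 4319 to 4976 CPM. TTR and GC are also liver products, and the part of liver-like RNA in their levels was not tested.

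GC fell in PAX6-/-. WT + BFP held 111 and 47.2 CPM, with the widest relative spread of any member there, and PAX6-/- + BFP held 10.7, 12.2 and 8.55 CPM. The log2 change was -2.91 ± 0.59 (adjusted p = 0.00873) and was lost only without WT + BFP replicate 1 (adjusted p = 0.146). With the ISL1 vector GC was at 62.4 and 70.6 CPM in WT and at 3.20, 5.32 and 6.59 CPM in PAX6-/-. That change of -3.72 ± 0.61 (adjusted p = 0.0024) passed in every alternative, in a comparison where 3.56% of all genes passed.

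In ISL1-/- + BFP, GC was at 53.4, 59.7 and 32.6 CPM, which overlapped WT (-0.70 ± 0.58, adjusted p = 0.577). It was higher there than in PAX6-/- by 2.21 ± 0.55 (adjusted p = 0.0365), where 2.46% of all genes passed, and the call was lost on leaving out any of the 6 libraries (adjusted p up to 0.185). PDX1-/- + BFP held 25.4, 29.8 and 19.7 CPM (-1.66 ± 0.58, adjusted p = 0.0821, and 0.0642 without PAX6-/- + ISL1 replicate 3). That difference from WT passed without PDX1-/- + ISL1 replicate 4 (-1.67). The ISL1 vector gave 23.5, 27.6 and 11.1 CPM in ISL1-/-, wholly below the BFP group, with -1.23 ± 0.53 (adjusted p = 0.56, and 0.0362 without both libraries that stood apart). In PDX1-/- it gave 20.3 and 163 CPM, a called rise of 1.87 ± 0.58 (adjusted p = 0.043) that turned to -0.30 without replicate 4 (adjusted p = 0.882).

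LOXL4, the matrix lysyl oxidase, fell in ISL1-/-. WT + BFP held 74.3 and 105 CPM, and ISL1-/- + BFP held 1.63, 2.98 and 2.52 CPM, from 92 to 172 counts. The log2 change was -5.23 ± 0.59 (adjusted p = 4.6e-05). PAX6-/- + BFP held 51.2, 29.4 and 65.4 CPM (-0.88 ± 0.52, adjusted p = 0.398) and PDX1-/- + BFP held 152, 147 and 114 CPM (0.62 ± 0.54, adjusted p = 0.578). LOXL4 in ISL1-/- was lower than in PAX6-/- by -4.35 ± 0.55 (adjusted p = 0.000168) and than in PDX1-/- by -5.85 ± 0.59 (adjusted p = 1.8e-05). The 3 differences that involve ISL1-/- + BFP passed under every alternative. Without both libraries that stood apart LOXL4 in PAX6-/- passed against WT at -0.89 (adjusted p = 0.0176).

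With the ISL1 vector LOXL4 was at 7.501, 7.36 and 9.56 CPM in ISL1-/-, above every ISL1-/- + BFP library and below every library of the other genotypes. The change between vectors of 1.77 ± 0.50 did not pass (adjusted p = 0.174). It did not pass without PAX6-/- + ISL1 replicate 3 (1.77, adjusted p = 0.124) and passed without PDX1-/- + ISL1 replicate 4 (1.75). Against WT + ISL1 (124 and 100 CPM) LOXL4 stayed lower by -3.78 ± 0.55 (adjusted p = 0.00104), which passed in every alternative. PAX6-/- + ISL1 held 40.6, 39.2 and 32.7 CPM, at -1.58 ± 0.52 against WT + ISL1 (adjusted p = 0.112, and 0.216 without its replicate 3). That difference passed without PDX1-/- + ISL1 replicate 4 (-1.59). In PDX1-/- + ISL1 the 2 libraries disagreed, at 170 CPM in replicate 2 and 20.5 CPM in replicate 4.

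**Figure D2:**
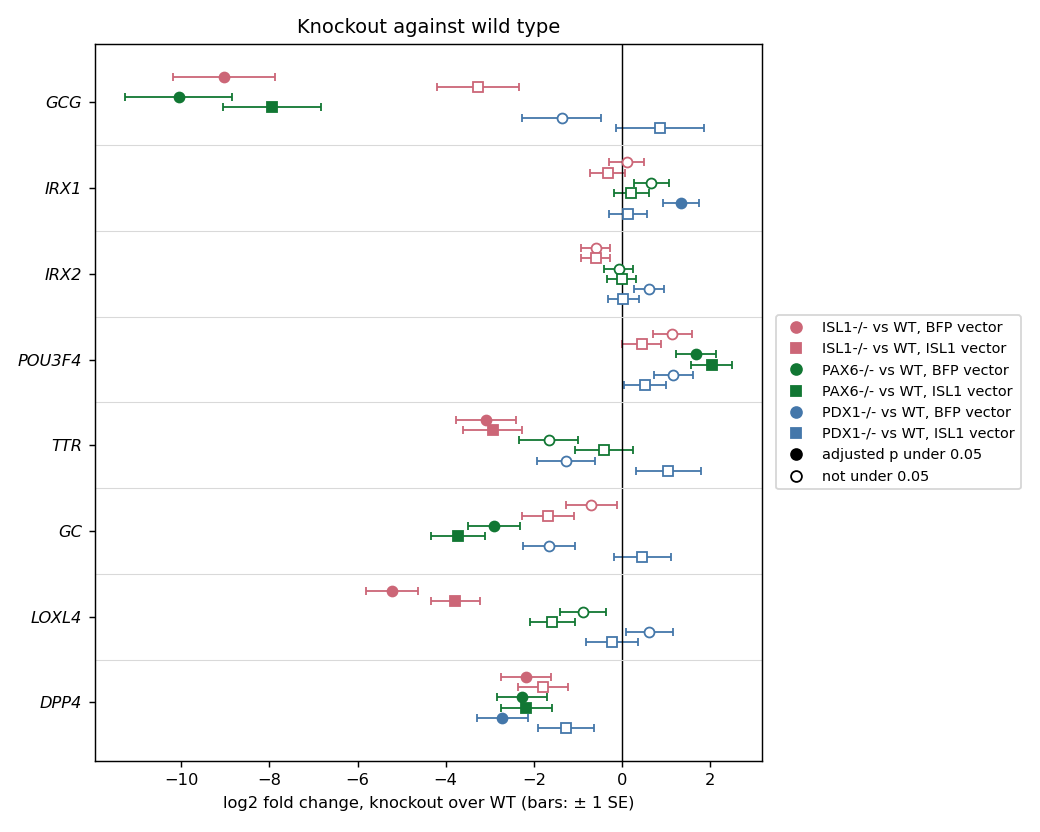
Log2 fold change of each gene in each knockout against WT, with bars of 1 SE. Circles are the BFP vector, squares the ISL1 vector, colours the genotypes, and filled symbols have an adjusted p under 0.05. GCG lies at -9.03 and -10.06 in ISL1-/- and PAX6-/- with BFP and at -1.37 in PDX1-/-, and LOXL4 lies at -5.23 in ISL1-/- and at -0.88 and 0.62 in PAX6-/- and PDX1-/-.

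The order of the levels differed by gene. For GCG the group means ran from WT + BFP (43781 ± 10658 CPM, SD, n = 2) and WT + ISL1 (32764 ± 2266, n = 2) through PDX1-/- + BFP (16949 ± 2390, n = 3) and ISL1-/- + ISL1 (3416 ± 1703, n = 3) to ISL1-/- + BFP (83.5 ± 8.51, n = 3) and PAX6-/- + BFP (40.9 ± 32.7, n = 3). The first 2 of these were alike within their spread. The mean of PAX6-/- + ISL1, 133 ± 178 CPM (n = 3), rests on replicate 3, and that of PDX1-/- + ISL1, 58872 ± 66769 CPM (n = 2), on replicate 4. For LOXL4 the order was PDX1-/- + BFP (137 ± 20.8 CPM, n = 3), WT + ISL1 (112 ± 16.8, n = 2), WT + BFP (89.6 ± 21.7, n = 2), PAX6-/- + BFP (48.7 ± 18.2, n = 3), PAX6-/- + ISL1 (37.5 ± 4.18, n = 3), ISL1-/- + ISL1 (8.14 ± 1.23, n = 3) and ISL1-/- + BFP (2.38 ± 0.687, n = 3). Neighbours among the first 5 overlapped or nearly did, and the last 2 stood clear of them. PDX1-/- + ISL1 is left out of this LOXL4 order. Its mean was 95.4 CPM (n = 2), from libraries at 170 and 20.5 CPM.

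Set side by side by vector, WT showed no called member (0 of 8 by edgeR, 0 at an unadjusted p under 0.05, 0 by DESeq2 and 0 by voom), where 0.027% of all genes passed. With only the 2 WT groups in the fit 1 member (DPP4) passed. DESeq2 gave no adjusted p for GCG in any comparison, so its counts in this paragraph leave GCG out. The shares of all genes in this paragraph are those of edgeR at an adjusted p under 0.05. PAX6-/- showed 0 of 8 by edgeR and by DESeq2, where 0.355% of all genes passed by edgeR. At an unadjusted p under 0.05 it showed 1, beside 2658 of all 25884 tested genes. By voom it showed 2, and the share of all genes passing by voom is not given here. ISL1-/- showed 1 of 8 by edgeR (GCG), where 0.382% of all genes passed. At an unadjusted p under 0.05 it showed 4, beside 1971 of all 25884 tested genes. PDX1-/- showed 3 of 8 (TTR, GC and IRX1), where 12.5% of all genes passed. Without replicate 4 their log2 changes were 0.74, -0.30 and -0.86, against 2.49, 1.87 and -1.32 with it. Against WT with the ISL1 vector, PDX1-/- showed 0 of 8 by edgeR, DESeq2 and voom and 0 at an unadjusted p under 0.05, where 0.634% of all genes passed, and 1 (DPP4, -1.99, adjusted p = 0.00198) without both libraries that stood apart. The vector effects in knockouts minus that in WT passed for 0 members by edgeR and DESeq2 in each of the 3 tests, where 0.00386%, 0% and 1.19% of all genes passed in ISL1-/-, PAX6-/- and PDX1-/-. At an unadjusted p under 0.05 the counts were 1, 0 and 2, beside 769, 916 and 4150 of all 25884 tested genes.

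**Figure D3:**
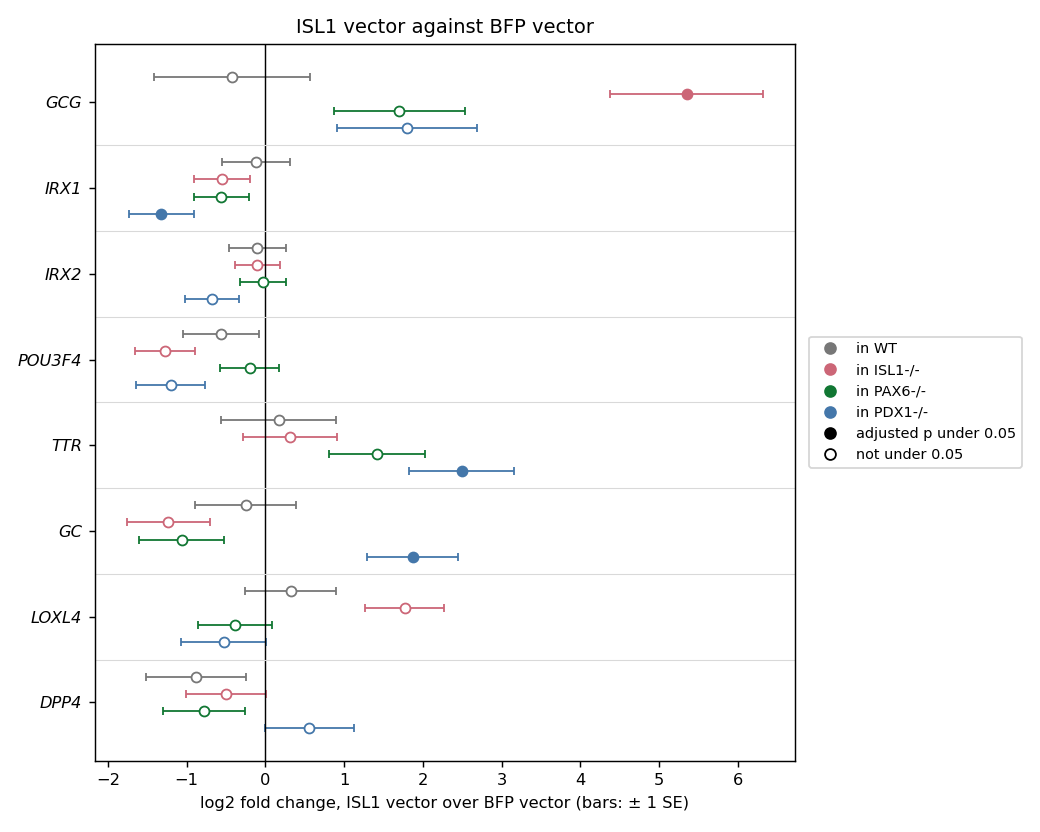
Log2 fold change of each gene between the ISL1 vector and the BFP vector in each genotype, with bars of 1 SE and filled symbols for an adjusted p under 0.05. GCG in ISL1-/- lies at 5.35, apart from its other values of -0.42 to 1.80, and the 3 filled symbols of PDX1-/- did not pass without replicate 4.

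Of 13 other genes enriched in alpha cells, 5 were lower in ISL1-/- + BFP than in WT + BFP (FAP, TM4SF4, PLCE1, ALDH1A1 and PTGER3) and none was higher, with a median log2 fold change of -1.24. In PAX6-/- 3 were lower (PTGER3, TM4SF4 and PLCE1, median -0.48), and in PDX1-/- 2 were lower (TM4SF4 and PLCE1, median -0.51). Without the 2 libraries that stood apart, which are in none of these groups but enter the shared estimate of spread, 10, 5 and 5 were lower, and 1, 0 and 1 (CRYBA2 in each case) were higher, where 23.5%, 23.5% and 27.6% of all genes passed. TM4SF4, a tetraspanin-like membrane protein gene, fell in all 3 knockouts, by -1.77 ± 0.48 (adjusted p = 0.0371), -1.92 ± 0.48 (adjusted p = 0.0262) and -2.0 ± 0.48 (adjusted p = 0.0133). PTGER3, a prostaglandin E receptor gene, fell most in PAX6-/-, by -3.83 ± 0.34 (adjusted p = 6.86e-06), from 104 and 130 CPM in WT + BFP to 6.02 to 10.4 CPM. FAP, the peptidase gene next to GCG (18.3 kb apart), was at 0.725 and 0.937 CPM in WT + BFP and had no count in any ISL1-/- + BFP library. A floor of 3 counts per library is 0.0467 to 0.0531 CPM there. The WT + BFP mean was 16.4-fold above the mean of these floors.

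Among 9 regulators of the glucagon gene and of islet fate, NKX6-1 and MNX1, which are beta-cell factors, rose in ISL1-/- (1.80 ± 0.39, adjusted p = 0.0103, and 1.82 ± 0.36, adjusted p = 0.00545) and in PDX1-/- (2.38 ± 0.40, adjusted p = 0.00142, and 2.27 ± 0.37, adjusted p = 0.00104). NKX2-2 rose in PAX6-/- (1.95 ± 0.46, adjusted p = 0.0188) and PDX1-/- (1.97 ± 0.46, adjusted p = 0.0105), and PAX4 rose in PAX6-/- (1.13 ± 0.30, adjusted p = 0.0355). In ISL1-/-, PAX6-/- and PDX1-/- the counts were thus 2, 2 and 3 higher and none lower of 9. Without the 2 libraries that stood apart 3, 5 and 4 were higher and 0, 0 and 2 lower, against the same 23.5%, 23.5% and 27.6% of all genes. The 6 beta-cell markers, of which NKX6-1 is 1, otherwise went down: IAPP, G6PC2, SLC30A8 and ERO1B were lower in each of the 3 knockouts, and INS, the insulin gene, also in PDX1-/- (-5.46 ± 1.06, adjusted p = 0.00361). They summed to 7733 and 8808 CPM in WT + BFP, 2146 to 2810 CPM in ISL1-/-, 971 to 1324 CPM in PAX6-/- and 778 to 862 CPM in PDX1-/- with BFP.

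Of 6 genes for proglucagon processing, CPE (carboxypeptidase E, which trims prohormone fragments) fell in ISL1-/- by -1.81 ± 0.29 (adjusted p = 0.00122) and SCG5 (the PCSK2 chaperone 7B2) by -2.08 ± 0.54 (adjusted p = 0.0295). SCG5 also fell in PAX6-/- (-2.37 ± 0.54, adjusted p = 0.0167). PCSK2, the convertase that releases glucagon, fell in PDX1-/- (-0.76 ± 0.23, adjusted p = 0.0424) and was at -0.30 and -0.01 in ISL1-/- and PAX6-/-, which did not pass. PCSK1, which releases GLP-1, rose in PDX1-/- (1.98 ± 0.54, adjusted p = 0.0279). MME (neprilysin), which like DPP4 degrades these peptides, rose in ISL1-/- (1.59 ± 0.45, adjusted p = 0.048) and PDX1-/- (2.59 ± 0.48, adjusted p = 0.00258). Under the ISL1 vector MME fell in ISL1-/- (-1.96 ± 0.40, adjusted p = 0.0348), in PAX6-/- (-2.22 ± 0.40, adjusted p = 0.0209) and in PDX1-/- (-2.89 ± 0.48, adjusted p = 0.00167). In these comparisons 0.382%, 0.355% and 12.5% of all genes passed. The PAX6-/- and PDX1-/- groups with this vector each hold a library that stood apart. The MME changes without those libraries are not given here.

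**Figure D4:**
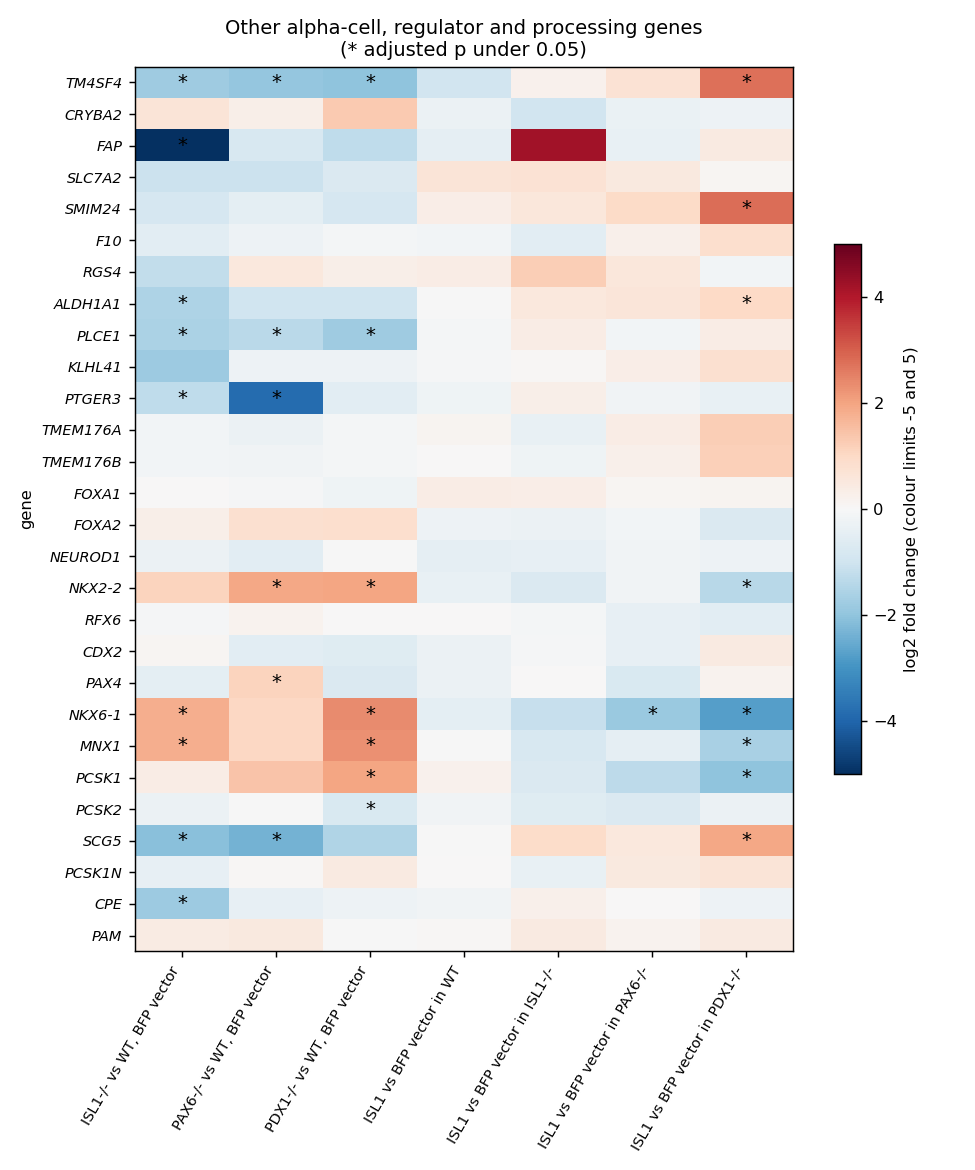
Log2 fold changes of other alpha-cell genes, regulators and proglucagon processing genes (rows) in 7 comparisons (columns), with stars at an adjusted p under 0.05 and colours limited to -5 and 5. TM4SF4 is starred in all 3 knockouts with BFP, and FAP in ISL1-/-, where it had no count with BFP, so that both FAP colours that use this group are fitted values.

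Across the 21 libraries the genes whose log2 levels were most like those of GCG were PYY (Pearson r = 0.96), VEGFC (0.95) and NKAIN4 (0.93), of 12439 genes with a mean of at least 5 CPM. PYY, a hormone gene of gut and islet cells, was at 91.8 ± 11.4 CPM (SD, n = 2) in WT + BFP and at 0.831 ± 0.390 CPM (n = 3) in ISL1-/- + BFP. For LOXL4 they were TSPYL5 (0.95), GSAP (0.94) and PBX3 (0.93), for TTR they were CLU and TMEM125 (both 0.98) and HPN (0.97), and for GC they were APOL2 (0.93), SCT (0.92) and PGF (0.90). ENTPD5 and GPAT3 (both 0.98) led for DPP4, NECAB3 (0.98) for IRX1, RAB29 (0.92) for IRX2 and CEND1 and ANKS1B (both 0.95) for POU3F4. NKX2-2 (0.93) was the third for POU3F4. No member was among the 3 most like another. Between members, r was -0.59 for GCG and POU3F4 and 0.02 for GCG and IRX1. These values describe libraries that share groups and scaling.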

How the data were processed

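The deposited values are raw counts of reads for each gene, next to exon coordinates and lengths, per the file headers. Per the submitters' processing notes STAR 2.7.11b, featureCounts 2.1.1 and GRCh38 were used; the annotation release and the handling of multimapping reads are not given in the sources used here. The entry of ANK2 is broken over several lines and was left out, and some genes of the lists are not reported here. Symbols come from a separate name table, which held all 62699 IDs. Groups follow the labels, and libraries carry the number in the sample description.

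Counts were tested with edgeR 4.0.16 (quasi-likelihood F test, TMM, filterByExpr with a minimum of 10 and a total of 15) in R 4.3.3. All 21 libraries were fitted with a coefficient per group, 16 contrasts were taken, and p-values were adjusted by Benjamini-Hochberg over 25884 genes, with a call at 0.05. The common biological coefficient of variation was 0.334. CPM are counts per 1000000 of the TMM library size. A count of 0 allows up to 3 counts, and floors cover counting error only. The fit was tested on simulated data. Members and lists were chosen with earlier results of these data known. Named genes are the members, the targeted genes, called genes of the lists (largest changes first) and the 3 genes most like each member.

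The alternatives were RLE scaling, DESeq2 1.42.0, no filter, limma 3.58.1 voom with sample quality weights, only the groups compared, a replicate block, each library left out and, added after seeing the data, both libraries that stood apart left out. Replicate numbers were taken to pair the libraries only for the vector comparison in PAX6-/- (correlations of deviations of 0.15 to 0.39 over 3 pairs), as read from the data. For the vector in ISL1-/- the correlations were 0.1 to 0.29 over 3 pairs, which did not meet the rule used.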

Additional observations from a re-analysis of the deposited data

Results flagged for a closer look

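The knockout effects of 4 members differed between genotypes by a direct test of 1 knockout against another with the BFP vector, in which the shared WT libraries cancel. GCG was lower in ISL1-/- than in PDX1-/- by -7.67 on the log2 scale and lower in PAX6-/- than in PDX1-/- by -8.70. LOXL4 was lower in ISL1-/- than in PAX6-/- by -4.35 and than in PDX1-/- by -5.85. GC was higher in ISL1-/- than in PAX6-/- by 2.21, and IRX2 was lower in ISL1-/- than in PDX1-/- by -1.20. The GCG and LOXL4 differences passed on leaving out each of their own 6 libraries in turn, the GC difference passed on leaving out none of its own, and the IRX2 difference passed on leaving out 1 of its 6.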

How the results depend on the processing

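Over the 16 comparisons the edgeR test made 26 calls of members. RLE scaling kept 25 of them, no filter 26, voom weights 23, the groups compared alone 20, a replicate block 23, and leaving out both libraries that stood apart 24. DESeq2 kept 20, lost none and gave no adjusted p for 16 of 128 pairs of member and comparison, which were the pairs of GCG. Calls gained were 0 with RLE scaling, 8 with DESeq2, 11 without the filter, 36 with voom, 23 with the groups compared alone, 17 with the block and 28 without both libraries. Leaving out 1 library mostly lost calls, up to 6 of 10 without WT + BFP replicate 1, and added calls only without replicate 3 of PAX6-/- + ISL1 (10) and without replicate 2 (7) or 4 (9) of PDX1-/- + ISL1.

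The numbers of members called that moved by more than 1.5 times were the following, and smaller moves are left out. With RLE scaling PDX1-/- against WT (BFP) went from 2 to 1. Without the filter the counts became 5 for ISL1-/- against PDX1-/-, 2 for PAX6-/- against PDX1-/-, 5 for ISL1-/- against WT (ISL1 vector), 2 for the vector in ISL1-/- and 1 for that effect minus WT. With voom weights they became 7 and 8 for PAX6-/- and PDX1-/- against WT (BFP), 7, 7 and 5 for the 3 pairs of knockouts, 6 for ISL1-/- against WT (ISL1 vector), 4, 2 and 0 for the vector in ISL1-/-, PAX6-/- and PDX1-/-, and 1 for ISL1-/- minus WT. With only the groups compared they became 8 for PDX1-/- against WT (BFP), 6 and 4 for ISL1-/- and PAX6-/- against PDX1-/-, 5 and 1 for ISL1-/- and PAX6-/- against WT (ISL1 vector), 1, 3 and 0 for the vector in WT, ISL1-/- and PDX1-/-, and 1 for ISL1-/- minus WT. Without both libraries that stood apart they became 7 for PDX1-/- against WT (BFP), 6 and 4 for ISL1-/- and PAX6-/- against PDX1-/-, 6 and 1 for ISL1-/- and PDX1-/- against WT (ISL1 vector), 4 and 1 for the vector in ISL1-/- and PAX6-/-, and 1 for ISL1-/- minus WT. The cause of these shifts was not tested. The share of all genes passing also rose without both libraries that stood apart, as given above. For the other settings that share is mostly not given beside the counts. The counts here and below therefore do not set the members apart from other genes.

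With each library left out in turn the counts ranged from 2 to 5, 1 to 5 and 1 to 3 for ISL1-/-, PAX6-/- and PDX1-/- against WT (BFP), and from 1 to 2, 2 to 5 and 1 to 3 for ISL1-/- against PAX6-/-, ISL1-/- against PDX1-/- and PAX6-/- against PDX1-/-. They ranged from 1 to 4, 2 to 5 and 0 to 1 for the 3 knockouts against WT (ISL1 vector), from 0 to 2 and 0 to 5 for the vector in ISL1-/- and PDX1-/-, and from 0 to 4 for PDX1-/- minus WT. A group left with 1 library is assumed to vary like the others. In PDX1-/- the GC change with the vector was 2.69 without replicate 2 of PDX1-/- + ISL1, and turned from 1.87 to -0.30 without replicate 4 and to -0.27 without both libraries that stood apart.

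With the replicate block the counts became 5 for PDX1-/- against WT (BFP), 5 and 5 for ISL1-/- and PAX6-/- against PDX1-/-, 4 for ISL1-/- against WT (ISL1 vector), and 4 and 0 for the vector in ISL1-/- and PDX1-/-. GC with the vector in PDX1-/- turned to -0.56 under the block. In PAX6-/-, where the numbers paired the libraries, the block called no member and raised the count of all genes from 92 to 578. In the other comparisons the libraries were not taken as paired, although the correlations were 0.1 to 0.29 for the vector in ISL1-/-.

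Every member had at least 70 counts per library, POU3F4 being the lowest, and groups held 2 or 3 libraries. The effect of depth and of group size on the calls was not tested beyond leaving out libraries. Fold changes of GCG carry an SE near 1 on the log2 scale.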
